A study of Mus musculus with 16 samples.

Results

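The response to the thyroid hormone triiodothyronine (T3) was measured in cultures labelled RXRgKO, which gave 8 of the 16 RNA libraries of the study. Of these, 4 came from cultures given T3 for 24 h and 4 from untreated cultures, and they were chosen by sample title alone, without use of any measured value. All libraries came from mouse oligodendrocyte precursor cells (OPCs), the dividing cells that become oligodendrocytes, derived from neural stem cells by way of oligospheres and taken on day 4 of monolayer culture, on a C57BL6J/129svEmx mixed background. RXRgKO is described in the design text as RXRg-/-, and the 4 untreated and 4 T3-treated libraries labelled WT as RXRg+/+. The WT-labelled libraries served here to set the T3 response beside another. They also entered the fit behind each T3 test, where they helped to set the spread, the filter and the scaling. The sources used here do not state the dose of T3, the part of the gene removed, the number of animals or whether a line was clonal. Since separate cultures are not stated for the 4 libraries of any group, the p-values describe spread that may be technical.

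T3 enters cells through transporters, is activated or inactivated by deiodinases, and binds nuclear receptors that commonly sit on DNA together with a retinoid X receptor (RXR). In the oligodendrocyte lineage T3 is a classical signal for precursors to leave the cell cycle and to switch on myelin genes, and it is a usual ingredient of media in which OPCs mature. RXR gamma, the protein that Rxrg encodes, is 1 of several RXRs and is expressed in oligodendrocyte lineage cells.

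Rxrg (ENSMUSG00000015843; GRCm38 chromosome 1, 167598384 to 167639623) was first examined, since it checks the labels. In CPM (read counts scaled to a common library size and corrected for composition) it was at 4.83, 3.77, 4.60 and 3.79 in untreated replicates 1 to 4 and at 5.46, 4.89, 4.27 and 5.05 in T3-treated replicates 1 to 4. In the WT-labelled libraries it lay between 0.371 and 1.79 CPM, so each library labelled RXRgKO held more Rxrg than each library labelled WT. Counts per gene do not show where in the gene the reads lie. The level of the gene thus went against the label, and the libraries are called RXRgKO-labelled throughout.

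The 8 libraries formed 2 sets. Xist, the RNA of the inactive X chromosome, was at 3.22, 543, 3.75 and 631 CPM in untreated replicates 1 to 4 and 1.39, 1.53, 723 and 711 CPM in T3-treated replicates 1 to 4. Untreated replicates 1 and 3 and T3-treated replicates 1 and 2 thus lacked it, and the other 4 had it. Ddx3y, a Y-linked gene, was at 115, 52.9, 118 and 51.2 and 126, 124, 22.1 and 20.7 CPM in the same order, so that in the set with Xist it was lower with T3, and the cultures of that set were not shown to be alike apart from T3. Libraries of a set resembled each other more closely (chi-square per gene from 1.503 to 2.04) than libraries of different sets (4.94 to 9.62). Changes of genes and lists are therefore also given within each set, as 2 against 2 libraries, without p-values. Only the numbers of genes that passed a test within a set are given, and these may rest on technical spread. Gene counts per RXRgKO-labelled library ran from 18262279 to 42588442, and 33098 to 41671 genes had a count. Reads outside annotated genes were 18.1% to 23.5% of reads untreated and 11.5% to 18.7% with T3 (exact two-sided permutation test, p = 0.0571, adjusted over 7 measures 0.333; 4 against 4 cannot go below 0.0286).

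Markers of the labelled cell type were present. Olig2 and Sox10, transcription factors of the oligodendrocyte lineage, were at 269, 479, 224 and 458 and 231, 353, 184 and 359.7 CPM in untreated replicates 1 to 4, and Pdgfra, the receptor that defines OPCs, at 216, 529, 188 and 528. Each was lower in the libraries lacking Xist (replicates 1 and 3) than in those with it. Gfap, an astrocyte filament gene, was at 2216, 521, 2207 and 563 CPM in the same libraries, with the opposite order. The cultures thus held RNA of more than OPCs, in amounts that differed between the sets. In such bulk RNA, fewer cells of a type and less RNA per cell cannot be told apart.

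After T3, 555 of the 19764 genes that passed a filter on low counts were called (2.81% of those tested; edgeR quasi-likelihood test, Benjamini-Hochberg adjusted p under 0.05). Of these, 398 were higher (2.01%) and 157 lower (0.794%). The rises were also the larger changes: 230 of the higher and 49 of the lower genes changed at least 2-fold, 69 and 4 at least 4-fold, and 18 and 1 at least 8-fold. The 4 T3-treated libraries lay entirely above the 4 untreated ones for 387 of the higher genes, and entirely below for 153 of the lower genes. Over all genes tested, 7.87% lay above and 5.5% below without overlap. In both library sets all 398 and all 157 had the same sign as over 8 libraries, which their lack of overlap largely fixes. The median change of the higher genes was 0.86 (log2) where Xist was lacking and 1.33 where it was present, and that of the lower genes -0.81 and -0.94. The number called moved with the libraries: 359, 275 and 253 without untreated replicate 1, 2 or 4, and 322 and 294 without T3-treated replicate 3 or 4. With counts summed to 1 library per set and treatment, 0 genes were called by edgeR (664 at an unadjusted p under 0.05). That fit had no term for the set, so the difference between sets stayed in its spread. DESeq2 on the 8 separate libraries within the fit over all groups called 1194. When the share of reads outside genes was fitted as a covariate, 2180 genes were called higher and 2809 lower, so that the larger direction turned. That share was mostly lower with T3 and, within each treatment, higher in the libraries lacking Xist. In this fit T3 cannot be fully told apart from the share or the set. Values with the covariate are thus not corrected T3 changes.

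**Figure D1:**
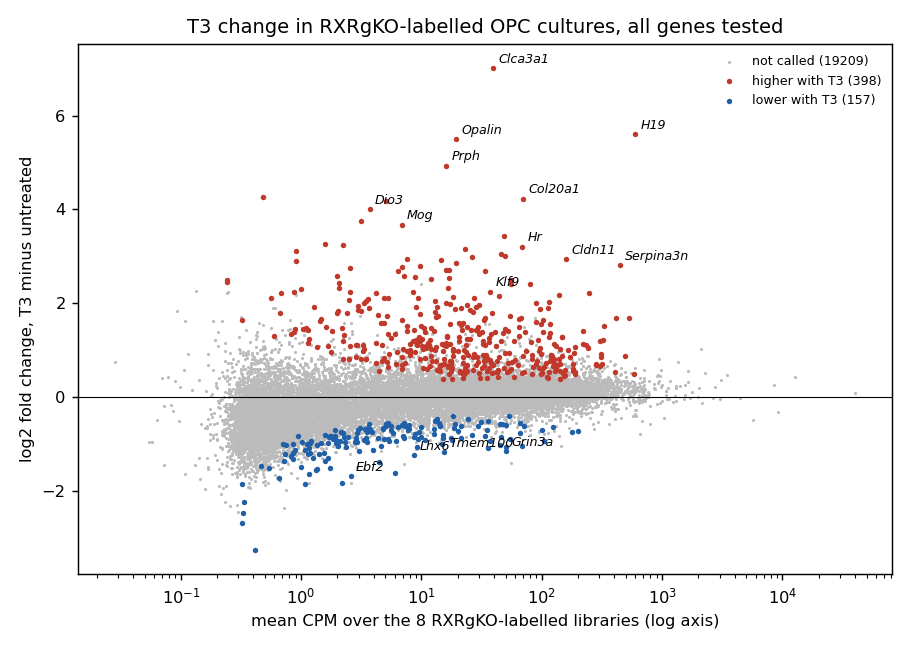
Each point is a gene: the x axis gives its mean CPM over the 8 RXRgKO-labelled libraries (log axis) and the y axis its log2 fold change with T3. Red points (398) were called higher, blue points (157) lower and grey points were not called; the largest rises, led by Clca3a1 at 7.01, exceed the largest falls in size.

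The largest rises included genes that were barely present without T3. Clca3a1 (ENSMUSG00000056025; chromosome 3, 144729677 to 144760977), of a family of chloride channel accessory proteins, was at 0.685, 0.616, 0.681 and 0.448 CPM in untreated replicates 1 to 4 and at 55.3, 50.8, 103 and 103 CPM in T3-treated replicates 1 to 4. All treated libraries were far above all untreated ones, and those with Xist (T3-treated replicates 3 and 4) were the highest. The log2 fold change was 7.01 (SE 0.37, adjusted p = 2.29e-08). Opalin (ENSMUSG00000050121; chromosome 19, 41061710 to 41077113), a membrane protein of myelinating oligodendrocytes, went from 0.822, 0.847, 0.724 and 0.925 CPM to 27.3, 30.0, 47.5 and 45.8 CPM (log2 fold change 5.49, SE 0.38, adjusted p = 4.50e-07). Here the untreated libraries of both sets were alike. Prph, which encodes the intermediate filament peripherin of peripheral neurons, went from 1.16, 0.578, 1.62 and 0.746 to 24.5, 23.6, 36.1 and 40.1 CPM (4.93 on the log2 scale, SE 0.34, adjusted p = 4.11e-07). Col20a1, a collagen gene, was at 7.11 ± 0.437 CPM (SD, n = 4) untreated and 134 ± 73.7 CPM after T3, and Lpo, which encodes lactoperoxidase, at 0.540 ± 0.172 and 9.62 ± 3.73 CPM. Their log2 fold changes were 4.23 (SE 0.39) and 4.17 (SE 0.47).

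Others among the 15 largest protein-coding rises ranged from 3.00 to 4.00 on the log2 scale. They were Dio3, Bcl3, an NF-kappaB cofactor, Mog, a myelin surface protein, Slc14a1, a urea transporter, Ninj2, an adhesion protein, Rpe65, the retinoid isomerase of the visual cycle, Hr, a corepressor, Trpc4, a cation channel, Vwc2, a secreted BMP antagonist, and Dusp26, a phosphatase. All 15 were higher in each T3-treated library than in each untreated one, as the rule that named them required, and all were called in each of the 8 fits that left out 1 library. Slc14a1 was not called when the libraries with Xist were left out. Of these 15, Dio3 and Vwc2 had the larger change in the set lacking Xist (4.80 against 2.98 for Dio3, and 3.07 against 3.04 for Vwc2), and the other 13 in the set with Xist.

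Promoter sequence of 3 of these genes is shown because T3 receptors are known to bind the hexamer AGGTCA, alone or repeated. The sequences are the 250 bases before the transcription start, 5′ to 3′ on the gene's strand, from RefSeq (GRCm38.p6), with any AGGTCA or its reverse complement TGACCT in capitals. That of Clca3a1 lies at chr3:144760978-144761227 on the minus strand, that of Opalin at chr19:41077114-41077363 on the minus strand and that of Col20a1 at chr2:180986285-180986534 on the plus strand.
Clca3a1: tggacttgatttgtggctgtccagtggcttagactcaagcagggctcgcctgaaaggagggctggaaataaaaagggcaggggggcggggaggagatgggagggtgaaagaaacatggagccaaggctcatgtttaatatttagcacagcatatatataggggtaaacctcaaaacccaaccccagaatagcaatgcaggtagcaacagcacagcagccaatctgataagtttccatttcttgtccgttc
Opalin: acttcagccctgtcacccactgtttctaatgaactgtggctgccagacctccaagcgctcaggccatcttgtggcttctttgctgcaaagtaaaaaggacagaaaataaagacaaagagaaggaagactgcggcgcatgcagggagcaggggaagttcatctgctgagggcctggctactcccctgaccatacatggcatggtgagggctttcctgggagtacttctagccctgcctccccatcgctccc
Col20a1: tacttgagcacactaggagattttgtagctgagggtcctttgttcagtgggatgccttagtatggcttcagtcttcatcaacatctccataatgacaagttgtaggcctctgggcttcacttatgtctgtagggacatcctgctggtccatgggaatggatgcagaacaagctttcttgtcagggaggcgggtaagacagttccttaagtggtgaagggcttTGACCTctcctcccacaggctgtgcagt
Of the 3, only the Col20a1 window holds the hexamer. Among all tested genes, 12931 had an entry in the promoter table, and 10.9% of their 16480 windows held the hexamer on either strand. Of the 411 windows of genes called higher, 9.49% held it, and of the 77 of genes called lower, 3.90%. The direct repeat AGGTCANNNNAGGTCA, on either strand, was in 0 of the 16480 windows. A match is a description of letters, and a window without one says nothing about binding elsewhere.

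**Figure D2:**
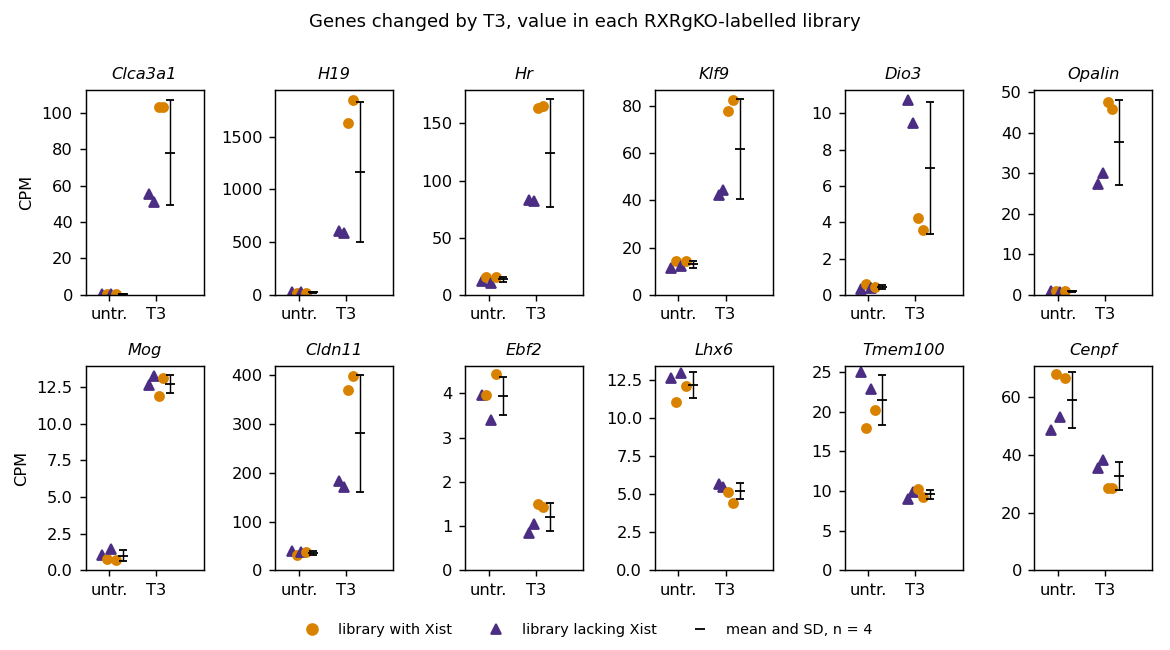
CPM (linear axes from 0) of 12 genes changed by T3 in each RXRgKO-labelled library; untr. is untreated, triangles are libraries lacking Xist, circles libraries with it, and black marks the mean and SD of 4. For Clca3a1, H19, Hr, Klf9, Opalin, Mog, Cldn11 and Dio3 every T3-treated library lies above every untreated one, and for Ebf2, Lhx6, Tmem100 and Cenpf below.

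Rises alone were called among genes known to respond to T3 in neural cells. Of 17 members measured, 8 were called higher and 0 lower, with a median log2 fold change of 1.16 against -0.0019 over all genes tested, and medians of 1.31 and 1.03 in the sets lacking and with Xist. For this and the lists below, the shares over all genes tested were 2.01% higher and 0.794% lower. Positive changes were found in 9847 of all 19764. Hr, whose product represses transcription with nuclear receptors, was at 12.4, 15.4, 10.3 and 15.6 CPM without T3 and 83.3, 82.3, 164 and 166 CPM after T3 in replicates 1 to 4 (3.21 on the log2 scale, SE 0.32, adjusted p = 1.86e-05). Klf9, a Krüppel-like factor and classical T3 target, went from 11.4, 14.4, 12.0 and 14.2 to 42.3, 44.5, 78.0 and 82.3 CPM (2.25, SE 0.30, adjusted p = 3.60e-04). In both genes the treated libraries with Xist held more than the treated libraries lacking it, and all held more than any untreated library. Dbp, a clock-controlled transcription factor, moved alike in both sets, from 10.5, 12.3, 10.3 and 11.02 to 41.4, 42.5, 36.8 and 39.2 CPM (1.85, SE 0.16, adjusted p = 5.02e-06). The remaining members called higher were Gbp3, a guanylate-binding protein, Stat5a, Itga7, an integrin chain, and Flywch2, with values from 1.32 to 2.54, together with Dio3. Flywch2 was not called in 5 of the 8 fits that left out 1 library.

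Among genes that carry, convert or sense T3, 1 of 13 measured members was called. It was Dio3, the deiodinase that inactivates thyroid hormone, at 0.343, 0.578, 0.383 and 0.418 CPM without T3 and 10.8, 9.47, 4.21 and 3.55 CPM after T3 (4.00 on the log2 scale, SE 0.37, adjusted p = 9.00e-06). All treated libraries were above the untreated ones, and those lacking Xist were the highest. Dio2, the activating deiodinase, gave 0.24 (SE 0.21, adjusted p = 0.608). The receptor genes Thra and Thrb gave 0.02 (SE 0.19) and 0.24 (SE 0.13) and did not pass the test. Of 20 corepressors and coactivators, Hr alone was called.

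Myelin and mature oligodendrocyte genes rose in part. Of 29 measured members, 10 were called higher and 0 lower, and 15 had no overlap between treated and untreated libraries, against 13.4% of all genes tested. Positive changes were found in 24 of the 29, the lowest change was -0.42, and 19 were not called. The median change of the list was 0.67, with 0.42 in the set lacking Xist and 1.10 in the set with it. Beside Opalin, the myelin surface gene Mog went from 1.06, 0.770, 1.49 and 0.687 to 12.7, 13.2, 11.9 and 13.1 CPM (3.68, SE 0.38, adjusted p = 2.27e-05), with treated libraries of both sets at the same level. Cldn11, the claudin of myelin tight junctions, went from 40.2, 31.0, 36.7 and 38.0 to 183, 171, 369.8 and 397 CPM (2.94, SE 0.26, adjusted p = 6.24e-06). Its treated libraries with Xist were at more than those lacking it. Gjc3, a connexin, rose by 2.5 (SE 0.27), the transferrin gene Trf by 1.93 (SE 0.29), the adhesion protein gene Mag by 1.57 (SE 0.23) and the tetraspanin gene Tspan2 by 1.43 (SE 0.24). Mobp, the gene of the myelin-associated oligodendrocyte basic protein, was at 1.85, 1.00, 2.81 and 1.40 CPM without T3 and 2.98, 4.00, 20.1 and 20.7 CPM after T3. It thus rose mainly in the libraries with Xist, with 4.05 on the log2 scale against 0.58 in those lacking it, and without untreated replicate 4 it was not called. Trf, Tspan2 and Mobp were not called with the covariate for reads outside genes.

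Genes of committed and premyelinating oligodendrocytes gave 4 higher and 1 lower of 20, against 2.01% and 0.794% of all genes tested. Their medians were 0.03 in the set lacking Xist and 0.48 in the set with it. Tmem163, a zinc transporter, went from 5.72, 6.32, 4.85 and 6.63 to 18.0, 19.5, 72.0 and 76.4 CPM (2.98, SE 0.45, adjusted p = 9.67e-04), and Kif19a, a kinesin, gave 2.86 (SE 0.48, adjusted p = 0.00249). The scaffold gene Cnksr3 and the small GTPase gene Rras2 rose by 1.68 and 0.91, and Lims2, a focal adhesion protein gene, fell by 1.02. Cnksr3, Rras2 and Lims2 were not called in 3, 6 and 4 of the 8 fits that left out 1 library. With the covariate for reads outside genes the list turned, to 1 higher and 3 lower with a median of -0.32 (0.31 without it), and Tmem163, Cnksr3 and Rras2 were not called.

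Of 23 transcription factors of the lineage, 1 was called higher and 1 lower, against 2.01% and 0.794% of all genes tested. Nkx6-2, a homeobox factor of mature oligodendrocytes, went from 12.4, 6.89, 13.1 and 6.63 to 42.3, 40.3, 32.7 and 36.4 CPM (1.96, SE 0.33, adjusted p = 0.00274). Untreated libraries lacking Xist held more of it than those with Xist, and all treated libraries were above both. Sox5, a Sox factor of precursors, fell by 0.56 (SE 0.14, adjusted p = 0.0339), a call lost in 6 of the 8 fits that left out 1 library. Sox10 and Myrf, the regulator of myelin genes, gave 0.34 (SE 0.35) and 0.81 (SE 0.33) and did not pass the test. In the fit with the covariate for reads outside genes, 2 of the 23 were higher and 7 lower, with a median of -0.45.

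Of 22 OPC markers, 0 were called higher and 3 lower, against 2.01% and 0.794% of all genes tested, and their median was -0.26. With the covariate for reads outside genes, which moved with T3 and with the set, 1 was higher and 16 were lower, with a median of -1.05. Tmem100, a membrane protein, was at 25.0, 17.9, 22.9 and 20.1 CPM without T3 and 8.98, 9.89, 10.2 and 9.18 CPM after T3 (-1.17, SE 0.11, adjusted p = 1.19e-05), without overlap and alike in both sets. Dll3, a Notch ligand, fell by 1.03 (SE 0.21) and Egfr, the receptor of epidermal growth factor, by 0.68 (SE 0.14), with adjusted p = 0.012 and 0.0139. Dll3 was not called without untreated replicate 2 or 4, and Egfr was not called in 4 of the 8 fits that left out 1 library. Pdgfra and Cspg4, which encodes the NG2 proteoglycan, gave 0.09 (SE 0.40) and -0.73 (SE 0.26) and were not called. Of 20 Notch pathway and Id genes, Dll3 and the ligand gene Dll4 (-0.82, SE 0.21) were lower, and 0 were higher. The call of Dll4 was lost in 7 of the 8 fits that left out 1 library and with the covariate, where 1 gene of the list was higher and 8 were lower.

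**Figure D3:**
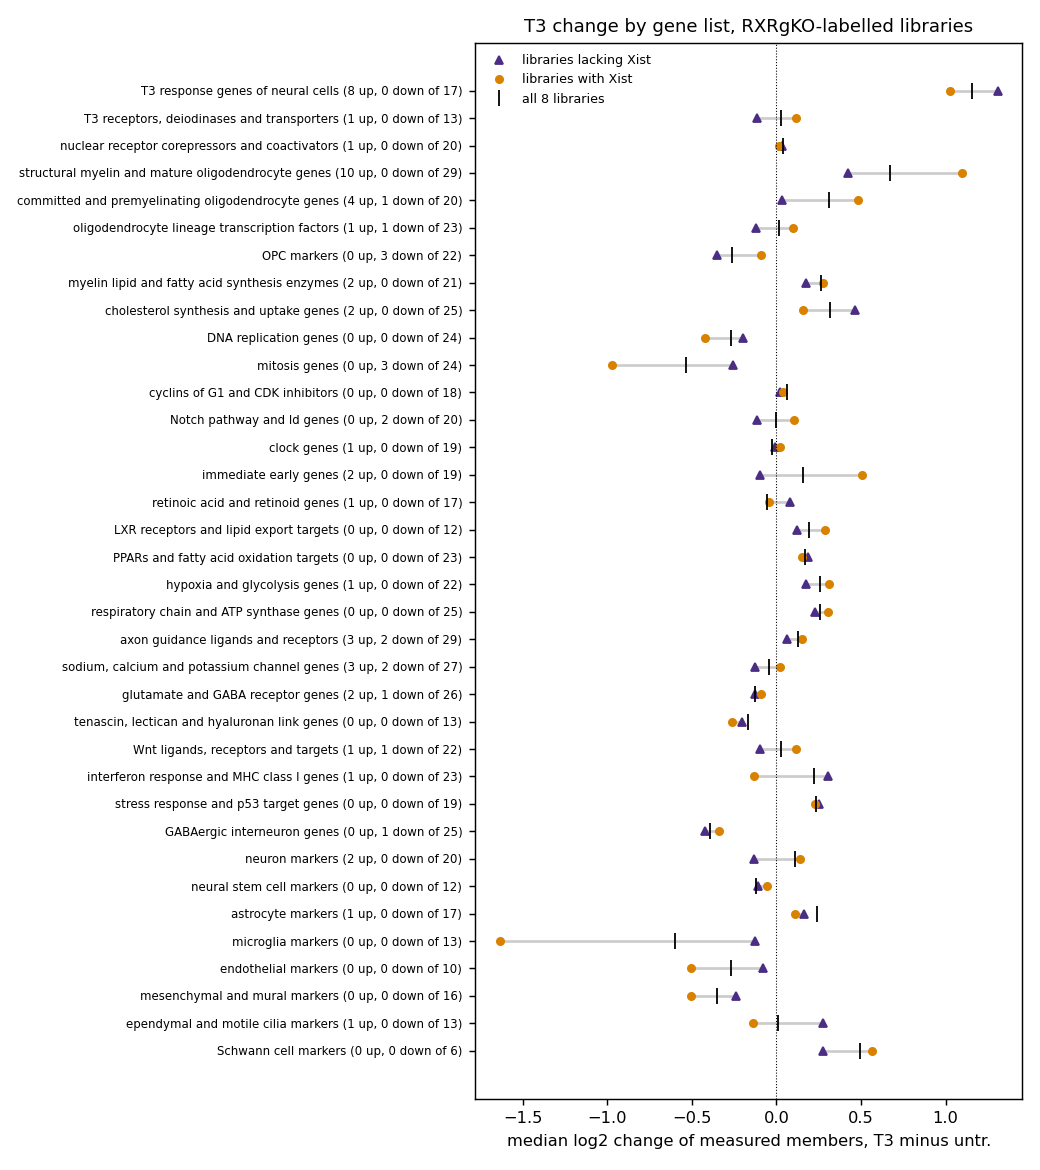
Median log2 fold change with T3 of the measured members of 36 gene lists over all 8 libraries (bar), in libraries lacking Xist (triangle) and with Xist (circle); untr. is untreated, the dotted line is the median of all genes tested and the numbers give members called. T3 response and myelin genes lie to the right in both sets, and mitosis genes lie to the left, further in the set with Xist.

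Mitosis genes were lower as a group in value, and 3 of 24 passed the test, where 0.794% of all genes tested were called lower. All 24 had negative changes, with a median of -0.54, and 10 were lower in every treated library than in every untreated one, against 5.5% of all genes tested. Cenpf, a kinetochore protein gene, was at 48.6, 68.2, 53.2 and 66.6 CPM without T3 and 35.6, 38.3, 28.5 and 28.7 CPM after T3 (-0.85, SE 0.15, adjusted p = 0.00398). The kinetochore motor gene Cenpe fell by 0.81 (SE 0.17) and the midbody kinesin gene Kif23 by 0.87 (SE 0.20). The latter calls were lost in 4 and 6 of the 8 fits that left out 1 library. The size differed between the sets, with a median of -0.26 lacking Xist and -0.97 with it. Mki67, a marker of cycling cells, was at 101, 128, 111 and 127 CPM without T3 and 82.6, 83.7, 60.2 and 58.9 CPM after T3, with adjusted p = 0.0889. In the fit with the covariate for reads outside genes the median of the list was -0.01, and 2 members were lower. Of 24 DNA replication genes, 0 were called, although all had negative changes (median -0.27), and the median was 0.05 with that covariate. Of 18 G1 cyclins and CDK inhibitors, 0 were called.

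Of 21 enzymes of myelin lipid and fatty acid synthesis, 2 were higher and 0 lower, with a median of 0.26, where 2.01% of all genes tested were higher. Ugt8a, the enzyme that makes galactosylceramide, the main myelin galactolipid, went from 174, 165, 155 and 185 to 423, 411, 534 and 577 CPM (1.52, SE 0.18, adjusted p = 7.61e-05). Elovl7, a fatty acid elongase gene, rose by 0.89 (SE 0.15, adjusted p = 0.003). Of 25 genes of cholesterol synthesis and uptake, 24 had positive changes (median 0.32) and 2 passed the test, the synthesis enzymes Ebp (0.71, SE 0.12) and Hsd17b7 (0.53, SE 0.13). Ebp kept its call in all 8 fits that left out 1 library, and Hsd17b7 in none. All 25 genes of the respiratory chain and ATP synthase had positive changes between 0.10 and 0.42, and 0 were called. Of all 19764 genes tested, 9847 had positive changes. Of 12 LXR and 23 PPAR list members measured, 0 were called, and of 22 hypoxia and glycolysis genes 1 was called higher, the oxygen sensor gene Egln3 (0.73, SE 0.15), which was not called without untreated replicate 2 or 4. In the fit with the covariate for reads outside genes, the median of the myelin lipid list turned to -0.15. There, 7 cholesterol and 12 respiratory chain genes were higher.

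Calls went both ways among channel, receptor and guidance genes. Of 27 sodium, calcium and potassium channel genes 3 were higher and 2 lower, of 26 glutamate and GABA receptor genes 2 and 1, and of 29 axon guidance genes 3 and 2, where 2.01% and 0.794% of all genes tested were. With the covariate, 2, 2 and 1 were higher and 8, 7 and 9 lower. Kcna1, a potassium channel of axons and glia, went from 1.95, 1.46, 2.26 and 1.25 to 11.3, 10.7, 11.3 and 10.98 CPM (2.68, SE 0.18, adjusted p = 4.11e-07), at the same treated level in both sets. Cacna2d3, a calcium channel subunit gene, rose by 1.53 (SE 0.16) and Grm7, a metabotropic glutamate receptor gene, by 2.33 (SE 0.37). Grm7 was at 5.99, 5.08, 6.05 and 4.84 CPM without T3 and 11.2, 11.2, 44.0 and 43.4 CPM after T3. Its rise was thus 0.89 in the set lacking Xist and 3.14 in the set with it, and it was not called with the covariate. Grin3a, an NMDA receptor subunit gene, fell from 50.4, 88.8, 43.8 and 94.5 to 24.6, 24.6, 37.6 and 38.0 CPM (-1.15, SE 0.24, adjusted p = 0.0141). It was not called without untreated replicate 2 or 4 or without T3-treated replicate 1. Among the axon guidance genes, the semaphorins Sema3e and Sema4d and the ephrin receptor Ephb1 were higher (Sema3e by 1.41 and Ephb1 by 1.36), and the Slit ligands Slit1 and Slit3 lower, by 0.87 and 0.95. Each of these 5 was lost in 4 to 7 of the 8 fits that left out 1 library, and the 3 rises were not called with the covariate, where Sema3e turned to -0.13. Of 22 Wnt pathway genes, the feedback inhibitor Nkd1 was higher (1.03, SE 0.26) and the receptor Fzd9 lower (-0.60, SE 0.14), both also lost in most of those fits.

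Of 19 immediate early genes, which respond to stimuli within minutes to hours, 2 were higher, against 2.01% of all genes tested. Fos was at 39.9, 14.5, 36.1 and 14.8 CPM without T3 and 64.9, 64.8, 78.9 and 78.2 CPM after T3 (1.45, SE 0.27, adjusted p = 0.0057), and Junb at 17.5, 6.55, 17.3 and 5.34 and 34.5, 34.4, 26.5 and 31.0 CPM (1.44, SE 0.36, adjusted p = 0.0413). In untreated libraries both were lower with Xist (replicates 2 and 4) than without. Junb was lost in 6 of the 8 fits that left out 1 library. With the 8 RXRgKO-labelled libraries fitted alone, 0 genes of this list were called, so that Fos was lost there too. Among 19 clock genes Dbp alone was called, and Nr1d1, a repressor of the clock, gave -0.24 (SE 0.12).

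The 15 largest protein-coding falls ranged from -1.68 to -0.96 (Kcnc2, a potassium channel gene). Ebf2, a transcription factor gene, was at 3.97, 3.97, 3.41 and 4.45 CPM without T3 and 0.851, 1.05, 1.51 and 1.43 CPM after T3 (-1.68, SE 0.26, adjusted p = 0.00124), without overlap. Cpne6, a calcium-dependent membrane-binding protein of neurons, fell by 1.5 (SE 0.22), the homeobox gene Irx1 by 1.38 (SE 0.25) and Lhx6, a transcription factor of cortical interneurons, by 1.24 (SE 0.21). Lhx6 was at 12.6, 11.1, 12.9 and 12.1 CPM without T3 and 5.65, 5.47, 5.15 and 4.46 CPM after T3. B3gat2, a glucuronyltransferase gene, and Col27a1, a collagen gene, fell by 1.07 and 0.99. These 6, with Tmem100, were called in each of the 8 fits that left out 1 library, and the other 8 of the 15 were lost in at least 1 of them. Such a fit keeps the other library of the same set and treatment. When the libraries with Xist were left out, Ebf2, Cpne6, Irx1, Lhx6 and Col27a1 were not called.

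Markers of other cell types were measured beside these changes. Over all 19764 genes tested, 2.01% were called higher and 0.794% lower, and 9847 had positive changes. Of 25 GABAergic interneuron genes, Lhx6 was the only 1 called (lower), 20 had negative changes, and the summed level of the list was 812 to 927 CPM without T3 and 632 to 709 CPM after T3. Dlx1, a homeobox factor gene, and Gad1, the gene of a GABA-making enzyme, gave -0.27 (SE 0.25) and -0.77 (SE 0.29). Of 20 neuron markers, Gap43, a growth cone protein gene, and Nefl, a neurofilament gene, were higher, by 1.15 (SE 0.12, adjusted p = 2.66e-05) and 1.01 (SE 0.15). Of 17 astrocyte markers, Atp1b2, a subunit of the sodium pump, was higher (1.38, SE 0.26). Gfap was at 4009.9, 3458, 1756 and 1944 CPM in T3-treated replicates 1 to 4 and gave 1.02 (SE 0.67, adjusted p = 0.479), with libraries of both treatments overlapping. The summed astrocyte markers were at 4199 to 7105 CPM without T3 and 6182 to 9796 CPM after T3.

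Of 13 microglia markers measured, 0 were called, and their sum was 27.0 to 42.0 CPM without T3 and 10.6 to 40.4 CPM after T3. The lowest were T3-treated replicates 3 and 4, where the macrophage gene Csf1r was at 0.390 and 0.542 CPM, and the median change of the list was -0.12 in the set lacking Xist and -1.64 in the set with it. Endothelial markers (0 of 10 called) summed to 30.2 to 59.6 CPM without T3 and 33.0 to 42.4 CPM after T3, and mesenchymal and mural markers (0 of 16) to 433 to 1003 and 591 to 739 CPM. Of 13 markers of ependymal cells and motile cilia, the dynein gene Dnah5 was higher (0.90, SE 0.20), a call lost in 4 of the 8 fits that left out 1 library. With the covariate, 9 of these 13 were higher (median 1.20), and the microglia median turned to 0.73 with 1 higher. The part of other cell types in the changes above was not tested.

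Noncoding transcripts were called in both directions. H19 (ENSMUSG00000000031; chromosome 7, 142575529 to 142578143), an imprinted long noncoding RNA, was at 30.1, 18.5, 29.2 and 18.2 CPM without T3 and 603, 586, 1628 and 1850.5 CPM after T3 (5.60, SE 0.47, adjusted p = 4.24e-06). It was higher with T3 by 4.32 in the set lacking Xist and by 6.57 in the set with it. Neat1, the RNA scaffold of paraspeckles, went from 55.8, 29.0, 63.2 and 31.4 to 242, 276, 124 and 95.5 CPM (2.04, SE 0.33, adjusted p = 0.00218), with the libraries lacking Xist highest. Of 15316 protein-coding genes, 376 were higher and 78 lower. Of 769 lincRNA genes, 11 and 11 were called, with a median of -0.31. With the covariate for reads outside genes the numbers were 1934 and 2639 for protein-coding and 88 and 25 for lincRNA genes, whose median turned to 0.42. No difference between these classes was tested. Of 1461 gene models of the annotation class TEC, which await experimental evidence, 0 were higher and 49 lower, with a median of -0.53, so that they made up 49 of the 157 falls. Reads outside annotated genes were a smaller share of the treated libraries, as given above, and the TEC median was -0.28, with 10 higher and 79 lower, with that share as a covariate. Without the 4 libraries lacking Xist it was -0.62 with 21 lower, and without the 4 with Xist -0.43 with 0 lower.

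For some genes the size of the change differed between the sets. Of all genes tested, 22.7% passed the test within the set lacking Xist and 41.9% within the set with it, but these counts of 2 against 2 libraries may rest on technical spread alone. Across the 19764 genes, which are not independent, the changes of the 2 sets had a Pearson correlation of 0.587. Of the 398 higher genes, 345 had the larger change in the set with Xist. Among the called genes named here, the widest gaps were those of Mobp, Grm7, H19 (4.32 lacking Xist against 6.57 with it) and Bcl3 (2.79 against 4.98), and Dio3 had the widest gap in the other direction. Serpina3n, a serine protease inhibitor gene of reactive glia, was at 147, 70.6, 153 and 69.1 CPM without T3 and 694, 641, 844 and 924 CPM after T3. It rose by 2.15 in the set lacking Xist and 3.66 in the set with it, and since it has close paralogs, the split of reads among them is uncertain. When the 4 libraries lacking Xist were left out, 798 genes were called (510 higher, 288 lower), and when the 4 with Xist were left out, 121 were called (107 higher, 14 lower).

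**Figure D4:**
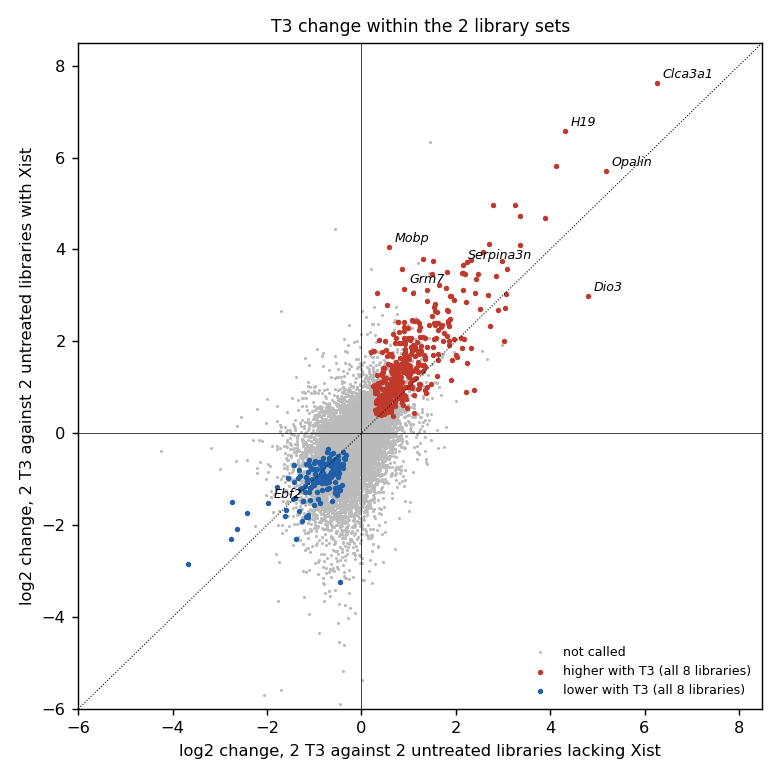
Log2 fold change with T3 of each gene in libraries lacking Xist (x axis) against that in libraries with Xist (y axis), 2 against 2 in each; the dotted line marks equal change and 1 gene lies outside the axes. Red and blue points, called over all 8 libraries, keep the same sign on both axes, and Mobp and Grm7 stand well above the line.

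The T3 response was set beside that of the WT-labelled libraries, which were measured in other samples. Every WT-labelled library had Xist, whereas the RXRgKO-labelled ones included both sets. Label and library set thus cannot be fully told apart in the label differences. Under the WT label, mean Xist was 1081 CPM before and 341 CPM after T3, and mean Ddx3y 29.4 and 71.2 CPM. The WT-labelled cultures were therefore also not shown to be alike apart from T3. In the WT-labelled libraries, 980 genes were called higher (4.96% of those tested) and 688 lower (3.48%). Those called higher under both labels numbered 317, which is 79.6% of the RXRgKO-labelled and 32.3% of the WT-labelled list. Those called lower under both numbered 67, which is 42.7% and 9.74%, and 0 were called in opposite directions. The difference between the responses was called for 13 genes (0.0658% of those tested), 2 with a more positive and 11 with a more negative change in the RXRgKO-labelled libraries. At an unadjusted p under 0.05 there were 1017 of 19764, near the share that this threshold alone would give. The fit had no term for the library set, so the difference between sets stayed in its spread. That share therefore does not show whether the responses were alike. DESeq2 called 105. Fits that left out 1 library called 3 to 49, with 49 and 40 when WT-labelled T3-treated or untreated replicate 1 was left out and 3 when WT-labelled untreated replicate 2 or 4 or RXRgKO-labelled untreated replicate 4 was. Of the 13, 4 were also called for T3 in the RXRgKO-labelled libraries.

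Edil3, a secreted integrin ligand, was at 22.8, 21.6, 22.6 and 22.8 CPM without T3 and 41.0, 41.5, 42.2 and 42.9 CPM after T3. It rose by 0.90 (SE 0.10), with 0.86 and 0.94 in the sets lacking and with Xist, against -0.21 (SE 0.10) in the WT-labelled libraries, a difference of 1.11 (SE 0.14, adjusted p = 0.00601). The other 3 rose under both labels, and less in the RXRgKO-labelled libraries. Thbs2, which encodes the matrix protein thrombospondin 2, rose by 0.77 against 2.35 (difference -1.59, SE 0.20, adjusted p = 0.00601). Its rise was 1.10 in the set lacking Xist and 0.44 in the set with it. Pcolce, an enhancer of collagen processing, rose by 1.22 against 3.26 (difference -2.04, SE 0.31, adjusted p = 0.0182), and Hsd17b7 by 0.53 against 1.79 (difference -1.27, SE 0.19, adjusted p = 0.0143). In the sets lacking and with Xist, Pcolce rose by 1.47 and 1.06, and Hsd17b7 by 0.68 and 0.38. Thbs2 and Hsd17b7 were not called for T3 when the RXRgKO-labelled libraries lacking Xist were left out. The differences of Pcolce and Hsd17b7 were lost in 9 and 7 of the 16 fits that left out 1 library, and those of Edil3 and Thbs2 in none. For Opalin, the changes were 5.49 and 3.41 and the difference of 2.08 (SE 0.49) had adjusted p = 0.193, and for Cldn11 they were 2.94 and 1.18, with a difference of 1.76 (SE 0.35, adjusted p = 0.0865). Neither passed the test.

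**Figure D5:**
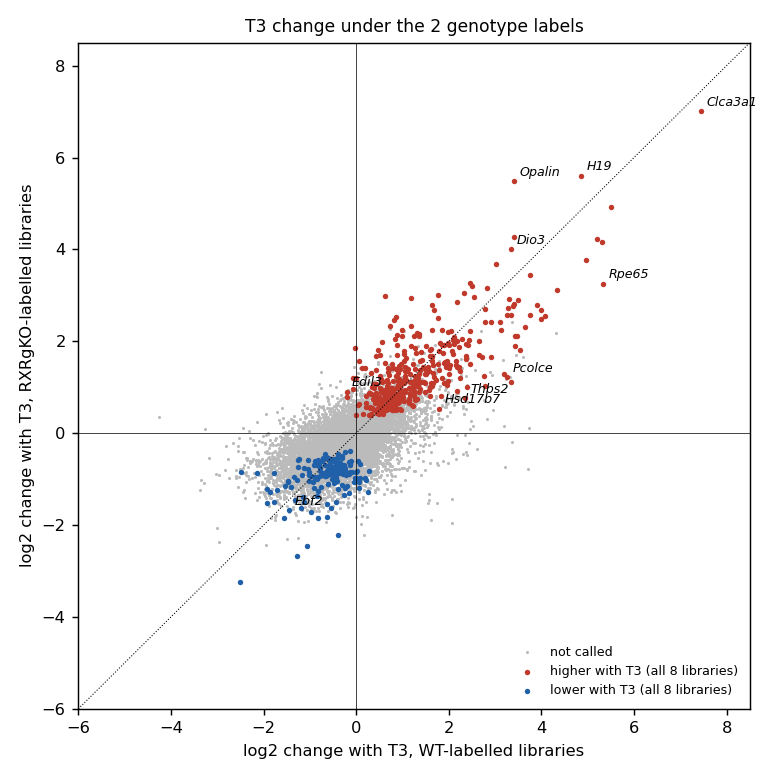
Log2 fold change with T3 of each gene in the WT-labelled (x axis) and RXRgKO-labelled libraries (y axis), 4 against 4 in each; the dotted line marks equal change. Genes called in the RXRgKO-labelled libraries spread along the line, and Edil3 lies at 0.90 on the y axis against -0.21 on the x axis.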

How the data were processed

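RNA was measured in 8 RXRgKO-labelled libraries, 4 untreated and 4 given T3 for 24 h, beside 8 WT-labelled ones. Per the labels' protocols, libraries were poly-A selected and stranded by dUTP. The submitters' processing notes name STAR 2.5.3a, HTSeq 0.6.1p1, bcl2fastq 2.17.1.14 and mm10, and the sources used here give neither the annotation release nor the strand setting. The authors deposited raw counts per gene for 55335 genes, and 5 summary lines per file were left out. GENCODE M21 (GRCm38) gave symbols for 55154 of them. Where strand was not used, antisense partners cannot be told apart.

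Groups came from the sample titles. Tests used R 4.3.3 and edgeR 4.0.16 with limma 3.58.1: all 16 libraries entered a quasi-likelihood fit with TMM factors, filterByExpr by group, robust dispersions and a mean per group, and a gene was called at an adjusted p (Benjamini-Hochberg) under 0.05. A standard error is the size of the log2 change over the root of F. A prior count of 2 entered only the log2 CPM values behind the check of pairing described below, not the fold changes. A library belonged to the set lacking Xist when Xist was under 20 CPM. Reads have no molecular identifiers, so the count model covers counting error and library spread only.

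The 8 libraries, the 37 gene lists, the tests and the rule for named genes were chosen with earlier results of these data known. The rule took Rxrg and sex-linked genes, the 15 largest protein-coding rises and falls (at least 2 CPM, no overlap), 3 rises and falls of other biotypes, the 5 highest-expressed called genes, up to 8 members per list by smallest adjusted p, the 2 most abundant members of each list for other cell types, and 8 genes each for the set and label differences. It gives 334 genes, of which a selection made with the values in view is printed. Lists are described by counts and medians without a test.

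Whether replicate numbers pair libraries was checked from correlations of residuals, and pairing was not established. Alternatives were DESeq2 1.42.0, DESeq2 size factors in edgeR, no low-count filter (49786 genes), dispersions without robust fitting, a minimum of 1 CPM in 4 libraries, the 8 libraries alone, a replicate block, the library set as a term, each set alone, counts summed per set and each library left out. Chosen after seeing the data were a covariate for reads outside genes and leaving out either set. On simulated counts for 19764 genes, the T3 test recovered 13.4%, 59.7% and 93.9% of genes changed by 1.5, 2 and 4-fold, with 4 false calls of 115, and the test of the label difference 0%, 31.3% and 81.8%, with 5 of 80. The simulated libraries were independent and had no sets, and only genes of at least 1 CPM were changed. These rates therefore do not describe libraries that fall into unlike sets, as the RXRgKO-labelled ones do.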

Additional observations from a re-analysis of the deposited data

Results flagged for a closer look

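In 7 genes discussed here the T3 change differed between genotype labels by an interaction term (edgeR quasi-likelihood test, adjusted over all genes), given as the RXRgKO-labelled minus the WT-labelled change on the log2 scale. The difference was 1.11 for Edil3, -1.59 for Thbs2, -2.04 for Pcolce and -1.27 for Hsd17b7, all 4 of which also rose with T3 in the RXRgKO-labelled libraries. A further 3 were chosen after their values were seen. Fam135b had 1.86 (changes 0.21 and -1.65, adjusted p = 0.00601). Ctsc, a lysosomal protease gene, had -1.24 (changes 0.38 and 1.62, adjusted p = 0.0182), and Prr5l, a partner of mTORC2, -1.13 (changes -0.28 and 0.85, adjusted p = 0.0182). The differences of Ctsc and Prr5l were lost in 12 and 9 of the 16 fits that left out 1 library, and that of Fam135b in none. None of these 3 was called for T3 in the RXRgKO-labelled libraries. In all 7 differences, label and library set cannot be fully told apart, since every WT-labelled library had Xist.

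Relative to the range of its group, a single library stood far from the other 3 in 4 of the 200 gene and group combinations examined. Chance alone flags about 1 in 20 where the values come from 1 distribution. Each group held libraries of both sets, so that rate may not hold here. Dll4 was at 1.09 CPM in T3-treated replicate 3 against 1.32 to 1.33 in the others, and Fzd9 at 8.51 CPM in the same library against 12.1 to 12.9. Egfr was at 118 CPM in untreated replicate 1 against 126 to 127, and Lims2 at 54.0 CPM in untreated replicate 3 against 61.6 to 62.8.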

How the results depend on the processing

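All 555 calls kept their sign under each alternative but 2: with the covariate for the share of reads outside genes 551 did, and at 1 CPM in 4 libraries 538 were in the fit and kept it. The T3 comparison called 1194 genes (804 higher, 390 lower) with DESeq2, 7203 (4383, 2820) with the library set as a term, 4495 (2812, 1683) within libraries lacking Xist, 8289 (5233, 3056) within those with Xist, 4989 (2180, 2809) with the covariate, 121 (107, 14) without the libraries with Xist and 0 with counts summed per set. Repeat libraries within a set may be technical, which the fits with sets do not show. Lower genes numbered 57 with no filter, where the median of all genes was -0.20, 245 at 1 CPM in 4 libraries and 288 without the libraries lacking Xist. With the 8 RXRgKO-labelled libraries alone, 448 genes were called (339 higher, 109 lower), and 340 of the 555 calls were kept. With each library left out, 253 to 500 genes were called, 214 to 380 higher and 39 to 120 lower. With a replicate block, 141 were called (129 higher, 12 lower); residuals of same-numbered libraries correlated at 0.543, -0.629, -0.697 and 0.5996, so the numbers do not pair them. The label difference was called for 105 genes (31 more positive, 74 more negative) with DESeq2, 20 at 1 CPM (17 more negative), 4 more positive ones without robust dispersions, 4 with the replicate block (2 more negative) and 3 to 49 with each library left out (2 to 18 and 1 to 36), the 49 and 40 without WT-labelled T3-treated or untreated replicate 1. The causes were not tested.

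Of 87 named genes called for T3, 59 were called in each of the 8 fits that left out 1 library, 71 with the covariate, 76 in the libraries with Xist alone and 38 in those lacking it alone. Sema3e was the 1 called gene to turn, to -0.13 with the covariate. Genes not called turned sign as follows. With the covariate, values were 0.21 for Dlx1, -0.52 for Myrf, -1.68 for Pdgfra, -0.87 for Sox10 and -0.56 for Thra. Pdgfra was at -0.012 with the replicate block, -0.0054 with the set as a term, -0.21 and -0.20 in the fits of libraries lacking Xist, and -0.24 to 0.34 with each library left out, negative without untreated replicate 1 or 3 or T3-treated replicate 3 or 4. Thra was at -0.015 at 1 CPM, -0.0011 with the replicate block, -0.18 and -0.17 lacking Xist, and -0.12 to 0.13 with each library left out, negative without those same libraries. Dio2 was at -0.12 and -0.11 lacking Xist. Of 792 list medians, 103 moved by more than 1 SD between libraries.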

Other observations

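Single genes of cytokine signalling and the acute phase that rose with T3 were picked out because they rose, and form no list that was counted or tested. Socs3, the feedback inhibitor of cytokine receptors that signal through STAT3, was at 21.3, 13.1, 21.5 and 13.5 CPM in untreated replicates 1 to 4 and 81.2, 78.5, 102 and 109 CPM in T3-treated replicates 1 to 4 (2.42 on the log2 scale, SE 0.19, adjusted p = 2.16e-06; edgeR). Stat3 itself went from 135, 161, 144 and 152 to 227, 227, 402 and 420.3 CPM (1.11, SE 0.23), a call lost in 4 of the 8 fits that left out 1 library and with the covariate for reads outside genes, and Osmr, a receptor for oncostatin M, from 21.3, 16.3, 30.4 and 17.0 to 49.4, 47.2, 42.7 and 45.1 CPM (1.12, SE 0.21). The protease inhibitor genes Serpina3f and Serpina3m had values of 2.92 (SE 0.47) and 2.72 (SE 0.48), with the reservation on close paralogs given for Serpina3n. Timp1, an inhibitor of metalloproteinases, Lbp, which binds bacterial lipopolysaccharide, Il1rap, a subunit of the interleukin 1 receptor, and Cebpd, an acute-phase transcription factor, rose by 2.12, 2.01, 1.74 and 1.35. Lbp was not called without untreated replicate 4, nor Cebpd without untreated replicate 2. All of these were higher in both sets, and untreated libraries lacking Xist held more Socs3, Osmr, Cebpd and Timp1 than those with Xist. Gfap, which is also raised in reactive astrocytes, was not called. Of 23 interferon response and MHC class I genes measured, 1 was called higher, against 2.01% of all genes tested. Their median change was 0.31 in the set lacking Xist and -0.14 in the set with it. Of 19 stress response and p53 target genes, 0 were called.

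The sodium pump beta subunit genes Atp1b1 and Atp1b2, also picked out after their values were seen, rose by 0.66 (SE 0.16) and 1.38 (SE 0.26), and the call of Atp1b1 was lost in 5 of the 8 fits that left out 1 library. Dio3os, the antisense neighbour of Dio3, had a value of 2.90 (SE 0.48) with 0.213 ± 0.0866 CPM untreated and 1.60 ± 0.540 CPM with T3, although reads of the 2 genes may not be separable where strand was not used.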
